A study of Mus musculus with 2 samples.

Results

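Genes of the SWI/SNF and CHD families of chromatin remodellers were compared between the 2 parental alleles of a hybrid mouse embryonic stem (ES) cell line. Members were all rows of the expression table whose gene name begins with Smarc, with Arid and a digit of 1 to 5, or with Chd and a digit, leaving out chromosomes 10 and 17. This gave 30 of 48550 rows, of which 13 had Smarc names, 7 Arid names and 10 Chd names. Not all of them encode remodellers: Smarca5-ps and Smarce1-ps1 are annotated pseudogenes, Chd3os is named as an opposite-strand transcript of Chd3, and the Arid3, Arid4 and Arid5 genes encode proteins outside SWI/SNF. The cells were F121-6, female ES cells of a 129 by castaneus (cas) cross, kept with LIF and serum on mouse embryonic fibroblasts that had been inactivated with mitomycin C. All samples form 1 group of 2 libraries of total nuclear RNA, and each library gives a 129 and a cas value for every gene. The labels do not name separate cultures as the source of the libraries, and their spread may therefore be technical.

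ATP-dependent remodellers slide, eject or exchange nucleosomes. SWI/SNF (BAF) complexes are built around the ATPase Smarca4 or Smarca2, with further subunits of the Smarcb, Smarcc, Smarcd and Smarce families and an ARID subunit that sets the type of complex. In mouse ES cells a variant called esBAF, which contains Smarca4, Smarcc1 and Smarcd1, is known for its role in self-renewal. CHD proteins carry paired chromodomains next to the same kind of ATPase, and Chd3, Chd4 and Chd5 are the alternative ATPases of the NuRD complex, which also deacetylates histones. ISWI ATPases (Smarca1 and Smarca5) space nucleosomes evenly.

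The reads that could be assigned to an allele numbered 28523744 in library 1 (53.6% from 129) and 31402765 in library 2 (54.2% from 129). Reads were recovered from the deposited RPKM by multiplying each value by its row's length, and testing required 20 or more allele reads per library. Ratios are log2(129/cas) of reads scaled to the column's depth (CPM) plus 0.1, so that a positive value is higher from 129. Each allele column was scaled to the typical gene, which gives 55.1% of its reads from 129 in library 1 and 56.2% in library 2. Calls are limma tests with Benjamini-Hochberg adjustment over all 15509 tested genes, at a threshold of 0.05. Of 12 ES cell markers, 11 were tested, and Sox2 was listed at 0. Of the 11, 1 was called higher from 129 and 4 from cas, with a median log2 ratio of -0.17. With 1 shared library size for both alleles, 4 were called from 129 and none from cas. Of 25 fibroblast markers, 21 were tested, 18 of which were higher from 129 and none from cas, with a median log2 ratio of 2.18. Their summed reads were 43596 from 129 against 22058 from cas in library 1, and 52336 from 129 against 22969 from cas in library 2. Most of the cas reads were of Fn1 (log2 ratio 0.16), with 24172 from 129 against 18033 from cas in library 1. In library 2 Fn1 had 25769 from 129 against 17654 from cas. Lum, Twist1 and S100a4 were listed at 0. The strain of the feeder fibroblasts is not in the labels. Feeder RNA assigned to 129 and higher expression from the 129 allele of the ES cells therefore cannot be told apart here. Nor can more fibroblasts and more RNA per fibroblast in bulk RNA.

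Of the 30 remodeller rows, 27 were tested, and 14 of these differed between the alleles, 2 higher from 129 and 12 higher from cas. Over all tested genes the called share was 43.9%, with 21.9% higher from 129 and 22.0% higher from cas, and off chromosomes 10 and 17 it was 42.7%, with 19.5% and 23.3%. Members were deep, with a median of 3310 and 3610 allele reads in library 1 and library 2 against 383 and 461 over all tested genes. Among genes with at least 1000 reads over both libraries, 11 of 20 members were called, against 55.9% of all such genes, so the number of calls was close to the background at that depth. Higher from cas were 9 of these 20 members, against 31.6% of such genes. Both shares at that depth include chromosomes 10 and 17, which the members leave out. On chromosome 10, 428 tested genes were called from 129 and 38 from cas. At least 2-fold calls numbered 4 of 27, against 17.3% of all tested genes and 16.9% of those off chromosomes 10 and 17. The median log2 ratio of the members was -0.14, against 0.00 over all tested genes and -0.04 over those off chromosomes 10 and 17. All 27 had the same sign in both libraries, which held for 79.2% of all tested genes and for 84.0% of those with at least 1000 reads.

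The split of directions depended on the scaling, and the cause was not tested. The alleles differ in total reads, and the split also moved when each column was scaled to its own total. With 1 shared library size for both alleles, 14 of 18 called members were higher from 129 and 4 from cas, and the median of all genes moved to 0.32. Of these 14, Chd4 and Chd1l were called from 129 before, Chd6 had been called from cas, and the other 11 gained a call, namely Smarca4, Smarca5, Smarcd2, Smarcd3, Smarce1, Smarcad1, Smarcal1, Arid1a, Arid5a, Chd2 and Chd5. With the column totals, 5 of 16 called members were higher from 129 and 11 from cas, against 61.9% of all called genes from 129. The median of all genes was 0.10 there, Smarca4, Chd2 and Chd5 gained a call from 129, and Chd6 lost its call. Called in the same direction under all 3 scalings were 6 members, namely Chd4 and Chd1l from 129 and Smarcd1, Smarca5-ps, Chd3 and Chd9 from cas. The share of all tested genes called so is not given, and the 6 are not set against a background. Without the library block 8 members were called, and with untrended variances 2, Smarcd1 and Smarca5-ps. The exact 95% intervals of the 129 share in the libraries did not overlap for 4 of 27 members, Chd1l, Chd9, Arid2 and Smarca5. Intervals narrow with depth, and no such count is given over all tested genes, so this one describes the members only. Directions below are relative to the typical gene.

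**Figure D1:**
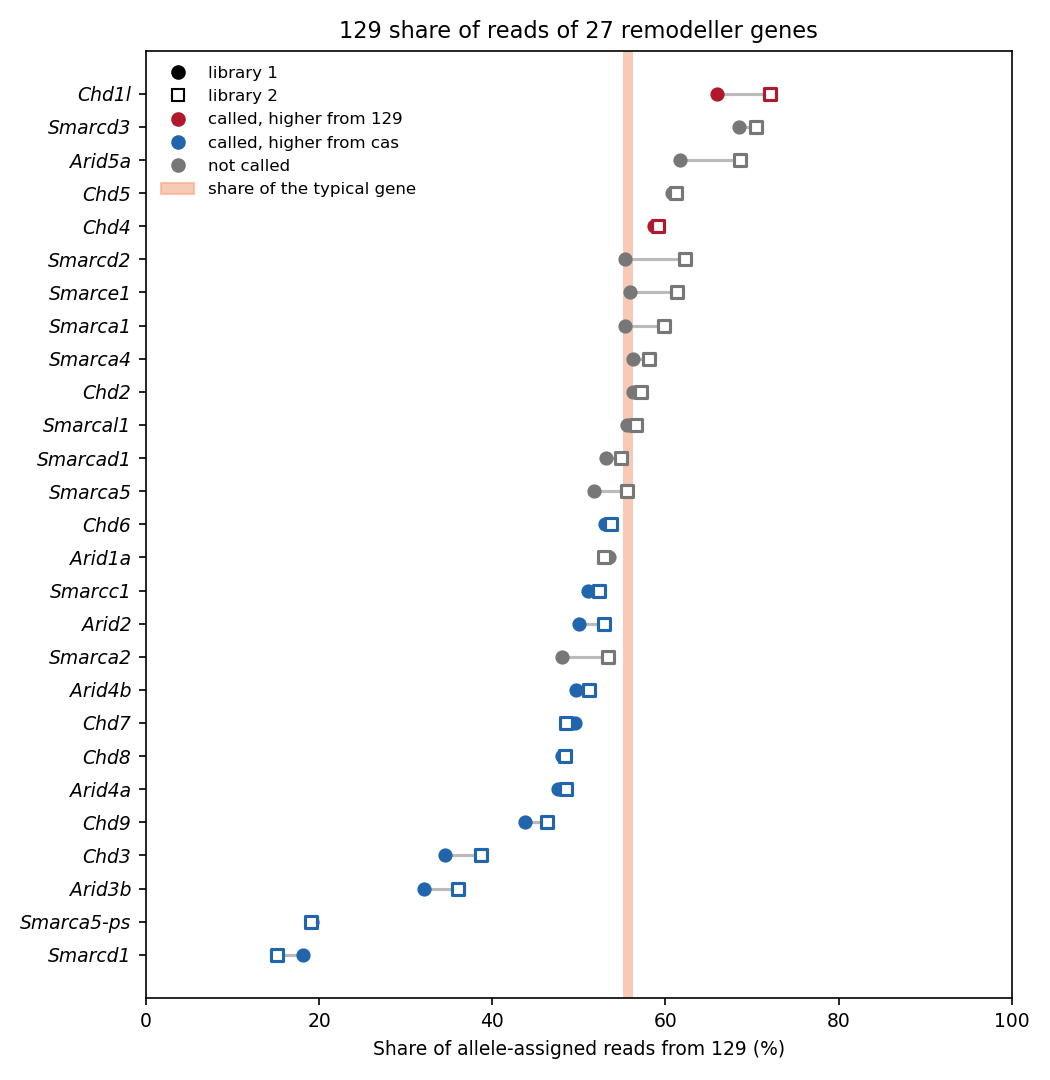
Share of allele-assigned reads from 129 (x axis, %) for the 27 tested members (rows, ordered by log2 ratio), with circles for library 1 and squares for library 2, coloured by the call, and a band at the share of the typical gene (55.1% and 56.2%). Smarcd1 and Smarca5-ps lie below 20% in both libraries, and most others between 45% and 62%.

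Smarcd1, a SWI/SNF subunit that binds transcription factors (ENSMUSG00000023018.5, chromosome 15, 99702129 to 99713991, mm10), had the largest ratio among the members. It had 132 reads from 129 against 596 from cas in library 1, and 111 from 129 against 621 from cas in library 2. The cas reads thus exceeded the 129 reads by more than 4 to 1 in each library. The 129 share was 16.6% ± 2.10 (SD, n = 2), and the log2 ratio was -2.64 (SE 0.18, limma adjusted p = 7.5e-47), a 6.24-fold excess from cas. Neither alternative subunit of the same family was called relative to the typical gene, but both were called from 129 with 1 shared library size. Smarcd2 had 206 reads from 129 against 166 from cas in library 1 and 218 from 129 against 132 from cas in library 2, a log2 ratio of 0.19 (SE 0.22, limma adjusted p = 0.52), and 0.51 with 1 shared library size (limma adjusted p = 0.044). Smarcd3, known for heart and muscle, had 63 reads from 129 against 29 from cas and 62 from 129 against 26 from cas, a log2 ratio of 0.83 (SE 0.45, limma adjusted p = 0.13), and 1.14 with 1 shared library size (limma adjusted p = 0.026). The protein-coding gene Chpf2 overlaps Smarcd3 by 3739 bp on the opposite strand and had 84 and 106 reads in library 1 and library 2.

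The neighbours of Smarcd1 did not share its ratio. Among the 17 tested genes whose deposited windows are centred within 500 kb of its own, the median log2 ratio was 0.04 and the lowest -0.67. Of these genes 4 were called from 129, 2 from cas and 11 were not called. The other tested genes of chromosome 15 had a median of -0.09. On the opposite strand 3 annotated genes overlap Smarcd1, of which Gm17349 was listed at 0. The sources used here do not say if strand was used in counting.

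Promoters are shown for the 3 protein-coding members with a RefSeq entry and the largest called ratios, chosen by those ratios, so that the letters around each start can be read beside the values. Each runs from 250 bases before to 50 after the start and comes from RefSeq on GRCm38.p6, the reference strain and neither parent. Capitals mark the GC box GGGCGG on either strand (CCGCCC on the other).
Smarcd1, chr15:99702037-99702336, plus strand: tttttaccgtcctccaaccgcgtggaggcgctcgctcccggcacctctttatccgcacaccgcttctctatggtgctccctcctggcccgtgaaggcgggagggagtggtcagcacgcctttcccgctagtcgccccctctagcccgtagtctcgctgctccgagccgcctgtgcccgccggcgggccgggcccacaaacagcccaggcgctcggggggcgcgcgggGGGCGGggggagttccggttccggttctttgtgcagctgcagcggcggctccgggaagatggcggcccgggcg
Chd1l, chr3:97610141-97610440, minus strand: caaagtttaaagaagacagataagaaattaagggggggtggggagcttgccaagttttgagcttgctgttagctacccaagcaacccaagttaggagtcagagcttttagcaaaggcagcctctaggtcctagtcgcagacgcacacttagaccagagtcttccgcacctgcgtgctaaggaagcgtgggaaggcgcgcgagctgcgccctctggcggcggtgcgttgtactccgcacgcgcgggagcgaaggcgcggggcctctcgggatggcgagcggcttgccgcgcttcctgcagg
Arid3b, chr9:57836730-57837029, minus strand: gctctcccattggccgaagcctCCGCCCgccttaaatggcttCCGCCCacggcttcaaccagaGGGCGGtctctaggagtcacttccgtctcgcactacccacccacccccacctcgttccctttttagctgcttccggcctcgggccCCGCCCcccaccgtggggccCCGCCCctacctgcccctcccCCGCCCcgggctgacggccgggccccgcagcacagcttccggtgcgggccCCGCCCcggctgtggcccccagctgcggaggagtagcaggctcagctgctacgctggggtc
The GC box occurred 1 time in the Smarcd1 promoter, 7 times in that of Arid3b, and in neither orientation in that of Chd1l. RefSeq promoters were found for 21 of the 30 members, and 18 of these held a GC box (85.7%), against 35.7% of all 32851 promoters in the table. CCAAT or its complement was found in 8 (38.1%), against 37.4% of all promoters. TATAAA or its complement was found in 1 (4.76%), against 13.6%, and CACGTG in none, against 7.15%. The members' promoters held a median of 24 CpG sites, against 7 over all promoters. For Smarcd2 and Smarcd3 the nearest entries lay 5340 and 22409 bp from the centre of the deposited window. These matches describe letters only.

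Neither catalytic subunit of SWI/SNF was called relative to the typical gene, but Smarca4 was called from 129 under both other scalings. Smarca4, the main ATPase of the complex in ES cells, had 2952 reads from 129 against 2301 from cas in library 1 and 3210 from 129 against 2313 from cas in library 2, a log2 ratio of 0.09 (SE 0.07, limma adjusted p = 0.32). It had 0.42 with 1 shared library size (limma adjusted p = 2.2e-08) and 0.19 with the column totals (limma adjusted p = 0.014). Smarca2, the alternative ATPase, had 277 reads from 129 against 299 from cas and 337 from 129 against 294 from cas, a log2 ratio of -0.28 (SE 0.17, limma adjusted p = 0.17) that was 0.04 with 1 shared library size, without a call. Allele reads per kb of annotated span were 59.7 and 62.7 for Smarca4 in library 1 and library 2, and 3.32 and 3.64 for Smarca2.

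Smarcc1, a scaffold subunit, was slightly higher from cas than the typical gene, with 5999 reads from 129 against 5762 from cas in library 1 and 7083 from 129 against 6442 from cas in library 2. Its log2 ratio of -0.23 (SE 0.05, limma adjusted p = 5.6e-05) turned to 0.10 with 1 shared library size and was not called without the library block. The deposited window of Smarcc1 is centred 14271 bp inside its annotated start. Smarce1, an HMG-box subunit, had 0.18 (SE 0.13) without a call, from 0.05 in library 1 and 0.30 in library 2, and 0.50 with a call from 129 with 1 shared library size. Arid2, the ARID subunit of the PBAF form, was higher from cas, with a 129 share of 50.0% in library 1 and 52.9% in library 2 (log2 ratio -0.25, SE 0.06, limma adjusted p = 0.00012), a difference that was 0.08 with 1 shared library size and lost its call without the block. Arid1a, the ARID subunit of the BAF form, had -0.14 (SE 0.06, limma adjusted p = 0.055), and 0.18 with 1 shared library size, where it was called from 129.

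Among genes with ARID domains outside SWI/SNF, 3 of 4 tested were higher from cas, against 23.3% of tested genes off chromosomes 10 and 17. Among all genes with at least 1000 reads over both libraries, as Arid4a and Arid4b had, 31.6% were higher from cas. The other genes with ARID domains outside SWI/SNF, Arid3a and Arid5b on the left-out chromosome 10, were both called from 129. Arid4a and Arid4b, related proteins that bind the retinoblastoma protein and histone deacetylase complexes, had log2 ratios of -0.44 (SE 0.07, limma adjusted p = 8.3e-10) and -0.30 (SE 0.05, limma adjusted p = 2.4e-08). Arid4a had 2723 reads from 129 against 2996 from cas in library 1 and 2752 from 129 against 2923 from cas in library 2. Arid4b had 7140 from 129 against 7233 from cas and 6925 from 129 against 6597 from cas. Both were close to even in reads and below the typical gene's 129 share in each library. With 1 shared library size they had -0.11 and 0.03 and no call, and Arid4b lost its call without the block. Arid3b, a DNA-binding protein of the ARID3 group, had 18 reads from 129 against 38 from cas in library 1 and 48 from 129 against 85 from cas in library 2, a log2 ratio of -1.23 (SE 0.46, limma adjusted p = 0.019). Its total of 189 reads was close to the lowest among tested members, the 180 of Smarcd3, and its exact 95% intervals for the 129 share ran to 46.0% in library 1 and 44.9% in library 2, counting error only. The call was lost without the block and with 1 shared library size, where the ratio was -0.91. The antisense gene Gm17231 overlaps 43943 bp of Arid3b and had 121 and 265 reads in library 1 and library 2 with a log2 ratio of -0.05. Arid5a, an RNA-binding member of the family known for stabilising inflammatory transcripts, had 127 reads from 129 against 79 from cas and 153 from 129 against 70 from cas, with 0.57 (SE 0.29, limma adjusted p = 0.10), and 0.89 with 1 shared library size, where it was called from 129. Arid3c was listed at 0 in all 4 columns, and its whole span of 7307 bp lies within Il11ra1 on the opposite strand.

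In the NuRD group of CHD genes, Chd4 and Chd3 were called in opposite directions. Chd4 (ENSMUSG00000063870.12, chromosome 6, 125095981 to 125130591), the principal NuRD ATPase of ES cells, had 6787 reads from 129 against 4791 from cas in library 1 and 9392 from 129 against 6479 from cas in library 2. The 129 share was 58.9% ± 0.39 (SD, n = 2) and the log2 ratio 0.19 (SE 0.05, limma adjusted p = 0.00094), a 1.14-fold excess from 129 that was not called without the block. Chd3 (ENSMUSG00000018474.17, chromosome 11, 69343273 to 69369406) had 156 reads from 129 against 296 from cas and 172 from 129 against 273 from cas. Its share was 36.6% ± 2.93 and its log2 ratio -1.12 (SE 0.20, limma adjusted p = 2e-07). Within 500 kb of Chd3 the 34 tested genes had a median log2 ratio of -0.12 and a range of -2.07 to 1.46. Chd5, the NuRD ATPase of neurons, had 0.31 (SE 0.17, limma adjusted p = 0.12), with 393 reads from 129 against 254 from cas and 407 from 129 against 258 from cas, and was called from 129 under both other scalings (0.64 with 1 shared library size, 0.42 with the column totals). Chd3os had 10 reads from 129 against 7 from cas in library 1 and 2 from 129 against 8 from cas in library 2, too few to be tested.

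All 4 genes of CHD subfamily III (Chd6 to Chd9) were higher from cas than the typical gene, against 31.6% of all genes with at least 1000 reads. Of these Chd6 turned to 0.19 with 1 shared library size, a call from 129 (limma adjusted p = 0.00077). Chd9 (ENSMUSG00000056608.14, chromosome 8, 90828352 to 91054516) had 7573 reads from 129 against 9740 from cas in library 1 and 9002 from 129 against 10440 from cas in library 2. The log2 ratio was -0.62 (SE 0.05, limma adjusted p = 3.8e-37), a 1.53-fold excess from cas, and cas reads exceeded 129 reads in both libraries before any scaling. Chd8, which binds beta-catenin and is known from autism genetics, had 1592 from 129 against 1718 from cas and 1747 from 129 against 1863 from cas (log2 ratio -0.43, SE 0.08, limma adjusted p = 7.7e-07). Chd7, an enhancer-bound remodeller mutated in CHARGE syndrome, had 2177 from 129 against 2219 from cas and 2230 from 129 against 2362 from cas (log2 ratio -0.38, SE 0.07, limma adjusted p = 1.3e-06). With 1 shared library size Chd8 and Chd7 had -0.10 and -0.06 and no call. Chd6 had 6307 reads from 129 against 5596 from cas and 7335 from 129 against 6323 from cas, a log2 ratio of -0.14 (SE 0.05, limma adjusted p = 0.025). Its call was lost with the column totals (-0.03), without the block, and when the fit was limited to genes with 100 or more reads per library (-0.12). The neighbours of Chd9 within 500 kb, 8 genes, had a median log2 ratio of -0.31, with 3 called from cas and none from 129.

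Chd1l, a remodeller that is activated by poly(ADP-ribose) at DNA damage (ENSMUSG00000028089.5, chromosome 3, 97560742 to 97610203), had the largest called ratio toward 129. It had 769 reads from 129 against 397 from cas in library 1 and 1260 from 129 against 487 from cas in library 2. The share was 66.0% in library 1 and 72.1% in library 2, with exact 95% intervals that did not overlap, and the log2 ratio was 0.83 (SE 0.12, limma adjusted p = 3.5e-11), from 0.65 in library 1 and 1.01 in library 2. Its 8 tested neighbours within 500 kb had a median of 0.06, with 3 called from 129 and none from cas. Chd2, which is found at active genes and belongs with Chd1 in subfamily I, had 6281 reads from 129 against 4877 from cas and 7999 from 129 against 6003 from cas, a log2 ratio of 0.06 (SE 0.05, limma adjusted p = 0.37). Under both other scalings Chd2 was called from 129, with 0.39 for 1 shared library size (limma adjusted p = 2.3e-12) and 0.16 for the column totals (limma adjusted p = 0.0036). The fibroblast markers were higher from 129 with the values above, and their part in the ratios of Chd4, Chd1l, Smarcd3 and Arid5a was not tested.

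**Figure D2:**
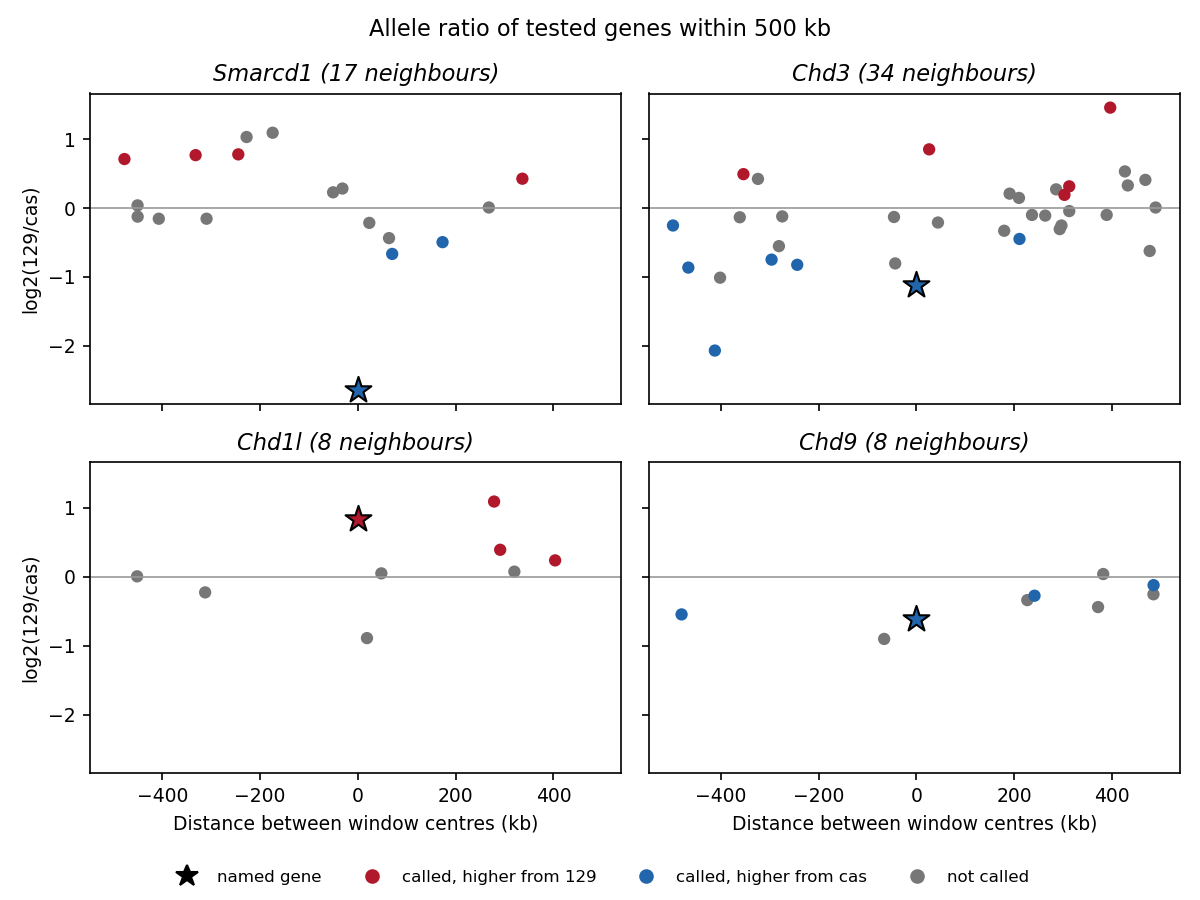
log2(129/cas) of tested genes (y axis) by the distance of their window centres in kb (x axis) from Smarcd1, Chd3, Chd1l and Chd9, each drawn as a star among its neighbours and coloured by the call. Smarcd1 at -2.64 lies below all 17 neighbours, whose lowest is -0.67, whereas Chd9 at -0.62 lies inside the range of its 8 neighbours.

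Neither ISWI ATPase was called relative to the typical gene. Smarca5, the ISWI ATPase of ES cells, had 2104 reads from 129 against 1959 from cas in library 1 and 2248 from 129 against 1797 from cas in library 2. Its log2 ratio was -0.12 (SE 0.08, limma adjusted p = 0.22), and with 1 shared library size it was 0.21, a call from 129 (limma adjusted p = 0.014). Smarca1, on the X chromosome, had 73 reads from 129 against 59 from cas and 76 from 129 against 51 from cas, a log2 ratio of 0.11 (SE 0.37, limma adjusted p = 0.84), where the 555 tested genes of the X chromosome had a median of -0.07. The large SE leaves a difference of the size seen for Chd4 undetectable at this depth. Smarcad1, which helps restore silent chromatin after replication, had -0.10 (SE 0.06, limma adjusted p = 0.14), 0.01 with the column totals and 0.23 with 1 shared library size, where it was called from 129. Smarcal1, an annealing helicase of stalled replication forks, had 0.02 in both libraries (SE 0.11), and 0.35 with a call from 129 with 1 shared library size.

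Smarca5-ps, a transcribed processed pseudogene of Smarca5 on chromosome 4 (145464204 to 145467420), had 64 reads from 129 against 270 from cas in library 1 and 56 from 129 against 238 from cas in library 2. Its 129 share of 19.1% ± 0.08 (SD, n = 2) and log2 ratio of -2.38 (SE 0.27, limma adjusted p = 6.9e-18) were far from those of Smarca5 itself on chromosome 8. The annotated transcripts of the pseudogene and of Smarca5 were 96.6% identical over 3163 aligned positions, and the sources used here do not give how reads shared by near-identical copies were counted, and both ratios are therefore uncertain. The 11 tested genes within 500 kb had a median log2 ratio of -0.40, with 5 called from cas and none from 129. Smarce1-ps1, whose transcript was 98.3% identical to Smarce1 over 1077 positions, had 5 reads from 129 against 1 from cas and 11 from 129 against 1 from cas, too few to be tested.

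Levels of different members were compared only as allele reads per kb of annotated span, which also depend on how many strain-specific bases a gene holds. Chd4 was highest with 335 reads per kb in library 1 and 459 in library 2, followed by Smarcad1 with 120 and 172. Smarca5-ps with 104 and 91.4, Arid4b with 105 and 99.2, Smarca5 with 99.1 and 98.7, Chd2 with 96.9 and 122 and Smarcc1 with 96.0 and 110 all lay between 91.4 and 122, and their order was not the same in the libraries. Smarcd1, with 61.4 and 61.7, stood above Smarcd2 with 38.0 and 35.7 and Smarcd3 with 2.74 and 2.62. Smarcd3, Smarca1 with 1.58 and 1.52 and Arid3b with 1.21 and 2.86 were the lowest tested members in both libraries, in an order that differed between them.

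**Figure D3:**
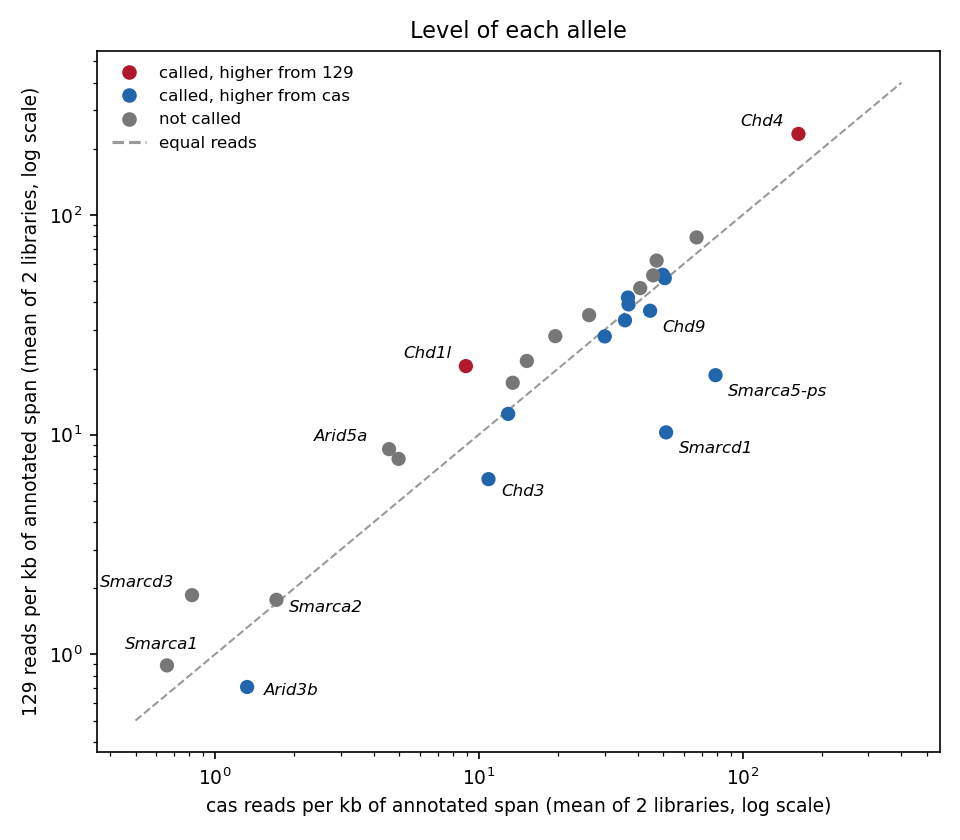
129 reads per kb of annotated span (y axis, log scale) against cas reads per kb (x axis, log scale), both as means of 2 libraries, for the 27 tested members coloured by the call, with a dashed line at equal reads. Smarcd1 and Smarca5-ps lie far below the line, Chd4 is the most abundant member, and genes near the line can still be called because the typical gene gives more 129 than cas reads.

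Of the genes with the same names on the chromosomes left out, Smarcc2, Smarcb1, Arid3a and Arid5b lie on chromosome 10. Their log2 ratios of 1.72, 0.46, 1.19 and 0.63 were all called higher from 129. The 708 tested genes of the chromosome had a median of 0.68. The log2 ratio of Smarcc2 was 1.20 in library 1 and 2.24 in library 2. Its 129 share was 74.0% in library 1 and 85.9% in library 2, with exact intervals that did not overlap. Relative to the typical gene, Arid1b and Chd1 on chromosome 17 had 0.06 and -0.07 without a call, where the 667 tested genes had a median of 0.24. Arid1b was called from 129 under both other scalings. It had 0.39 with 1 shared library size (limma adjusted p = 1.7e-14) and 0.16 with the column totals (limma adjusted p = 0.0014). Chd1 turned to 0.26 with 1 shared library size, a call from 129 (limma adjusted p = 1.6e-08). With the column totals Chd1 had 0.04 and no call.

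Partner genes of these complexes, without those on chromosomes 10 and 17, showed called shares of 23.5% to 50.0% per list. Of all tested genes off these chromosomes 42.7% were called, 19.5% higher from 129 and 23.3% higher from cas. With 1 shared library size, 81.3% of all called genes, on any chromosome tested, were higher from 129. Among 16 tested SWI/SNF partners, 3 were higher from 129 and 2 from cas, with a median log2 ratio of -0.01, whereas with 1 shared library size 7 were called from 129 and none from cas. Ss18 and Bcl7a, accessory BAF subunits, had 0.54 (SE 0.07) and 0.54 (SE 0.16) in limma, while Bcl11a had -0.48 (SE 0.18) and lost its call under both other scalings. Of 10 ISWI partners 1 was higher from 129 and 4 from cas (median -0.11), and with 1 shared library size 4 and 2. Baz2b, a subunit of ISWI complexes, had a 129 share of 39.1% ± 0.58 (log2 ratio -0.97, SE 0.05), and Baz1a, which pairs with Smarca5, one of 64.2% ± 0.52 (0.51, SE 0.09). Of 9 NuRD and ChAHP partners none was higher from 129 and 4 were higher from cas (median -0.09), among them the histone-binding Rbbp4 with -0.61 (SE 0.09), also an ISWI partner, and the deacetylase gene Hdac1 with -0.50 (SE 0.09), whereas with 1 shared library size 4 were called from 129 and 1 from cas. Of 17 genes of the INO80, SRCAP and TIP60 complexes none was higher from 129 and 4 were higher from cas (median -0.13), led by Ino80c with -1.23 (SE 0.19) and Ino80 with -0.41 (SE 0.06), whereas with 1 shared library size 5 were called from 129 and 1 from cas. Of 12 other SNF2-family ATPases 1 was higher from 129 and 3 from cas (median -0.08), with Ercc6 at 0.26 (SE 0.10) and Zranb3 at -0.39 (SE 0.07). With 1 shared library size 8 of them were called from 129 and none from cas. Under that scaling Hdac1 (-0.17), Ino80 (-0.08) and Zranb3 (-0.06) had no call, while Rbbp4, Baz2b and Ino80c stayed called from cas.

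**Figure D4:**
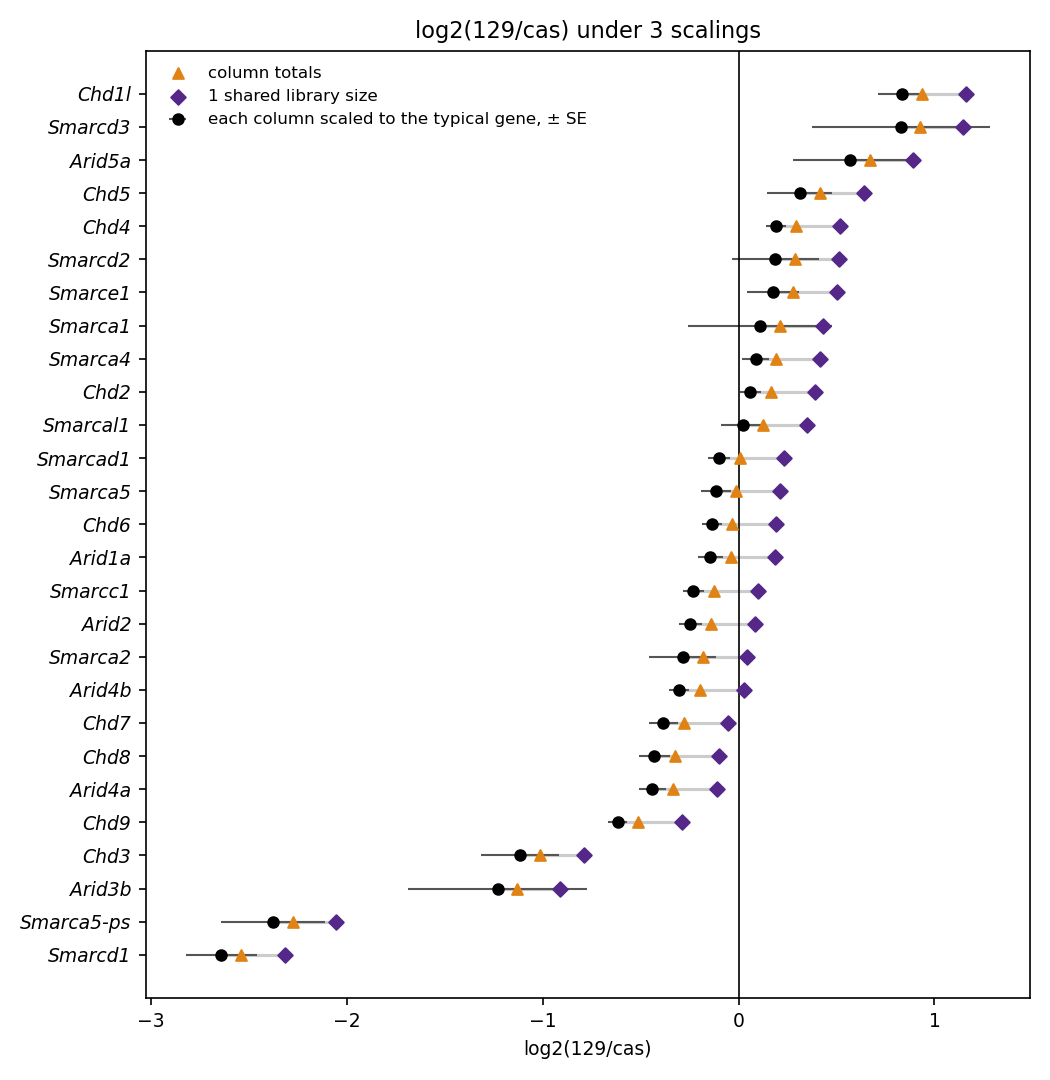
log2(129/cas) of the 27 tested members (rows) under 3 scalings, with black circles and SE bars for columns scaled to the typical gene, triangles for column totals and diamonds for 1 shared library size. Every member shifts to the right with 1 shared library size, 8 of them across 0, while 8 others stay below it, from Smarcd1, Smarca5-ps, Arid3b, Chd3 and Chd9 at -0.29 or lower to Arid4a, Chd8 and Chd7, with Chd7 the nearest at -0.06.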

How the data were processed

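Total nuclear RNA of 2 libraries was sequenced strand-specifically as paired-end reads, and earlier libraries were sequenced again and merged, per the labels' protocols. Alignment used Bowtie2 and mm10, per the submitters' processing notes. For the counter, the SNP set and the use of strand, nothing was given in the sources used here. Per the file headers the deposited columns hold counts, but their values are RPKM. Multiplied by row length in kb, every value became a whole number of steps of fixed size (tolerance 0.01 read), which gave the reads used. Only 67 lengths lay within 2 bp of the annotated span, so RPKM of different genes was not compared. Rows were matched to GENCODE M21 by name, chromosome and strand (95.6%; 29 of 30 members).

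Limma 3.58.1 in R 4.3.3 was used on log2(CPM + 0.1) with TMM scaling (trimmed means of M values) and trended variances, testing allele with a library block because the alleles of a library share their RNA. The 1570 rows on chromosome Y were left out. With infinite prior degrees of freedom, genes of like abundance shared 1 spread. Because of the 0.1 added to CPM, fold changes of genes with few reads are understated. The code was tested on simulated data. Tested members had 56 to 19442 reads per library, and intervals are exact (Clopper-Pearson). Alternatives changed scaling, pseudocount, filter, block, variance trend and test. Identities came from blastn, figures from Matplotlib 3.10.9. All members were named by rule, of the partner lists up to 2 called genes per direction with the largest ratios. Members and lists were chosen with earlier results of these data known.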

Additional observations from a re-analysis of the deposited data

How the results depend on the processing

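The count of called members, 14, stayed between 12 and 19 under the other scalings, a pseudocount of 1, both other filters and an exact binomial test in each library. It was 8 with no replicate block and 2 with untrended variances (Smarcd1 and Smarca5-ps), where calls over all genes numbered 3954 and 644, against 6809; the cause was not tested. The members' median log2 ratio, -0.14, became 0.19 with 1 shared library size, -0.032 with the column totals and -0.12 with at least 100 reads in each library; it was -0.13 from library 1 alone and -0.15 from library 2 alone. With 1 shared library size the sign turned for Chd6 (0.19), Smarca5 (0.21), Arid1a (0.18), Arid2 (0.082), Smarca2 (0.043), Smarcc1 (0.10), Arid4b (0.026) and Smarcad1 (0.23), and with the column totals for Smarcad1 (0.0051). No member turned sign under the other alternatives run. A single library leaves no residual degrees of freedom, so leaving 1 out gave values without a test. The binomial test, which takes no account of spread between libraries beyond counting, also called Arid1a, Smarcad1, Chd2, Chd5 and Smarcd3. Ratios of members with under 100 reads in a library (Arid3b and Smarcd3) are limited by depth.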
